A study of Mus musculus with 6 samples.

Results

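The globin genes of the alpha and beta loci were followed in the upper ends of the tibiae of 3 Control mice and 3 LS1 mice. The 7 genes, out of 47729 in the deposited table, were taken by their symbols: *Hba-x*, *Hba-a1* and *Hba-a2* of the alpha locus, and *Hbb-y*, *Hbb-bh1*, *Hbb-bs* and *Hbb-bt* of the beta locus. They were chosen by their symbols with their expression values in LS1 against Control in view, so this contrast is given for them as a description and with no test. LS1 is a line of Longshanks mice bred for tibiae that are long for the animal's body mass, and Control mice were bred at random from the same ICR (CD-1) stock. All 6 mice were 14 days old, came from different families of the same generation, and gave 1 library each from both epiphyses pooled. The tissue held growth plate, metaphysis, joint cartilage and the secondary ossification center, so bone, cartilage and marrow were sequenced together as polyadenylated RNA. LS1 stands for 1 selected line, and the genetic drift of a closed line cannot be told apart from selection with these samples.

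Hemoglobin is a tetramer of alpha-type and beta-type chains, each holding a heme, and it makes up most of the protein of a red cell. Each locus carries its embryonic genes ahead of its adult genes. The embryonic genes (*Hba-x*, *Hbb-y* and *Hbb-bh1*) serve the first red cells of the yolk sac, and the adult genes (*Hba-a1* and *Hba-a2* for alpha, *Hbb-bs* and *Hbb-bt* for beta) serve the red cells that are later made in liver, spleen and marrow. Distant enhancers, bound by factors such as GATA1, TAL1 and KLF1, drive each locus to very high output in maturing erythroblasts, and reticulocytes in blood still carry globin mRNA.

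The adult genes come in pairs of near-identical copies, and the sequences printed here show how little of a short read can separate them. On GRCm38, *Hba-x* (ENSMUSG00000055609) lies at chr11:32276400-32278116, *Hba-a1* (ENSMUSG00000069919) at chr11:32283511-32284465 and *Hba-a2* (ENSMUSG00000069917) at chr11:32296489-32297298, all on the plus strand. On the minus strand of chromosome 7, *Hbb-y* (ENSMUSG00000052187) lies at chr7:103851749-103853216, *Hbb-bh1* (ENSMUSG00000052217) at chr7:103841637-103843164, *Hbb-bs* (ENSMUSG00000052305) at chr7:103826534-103828096 and *Hbb-bt* (ENSMUSG00000073940) at chr7:103812524-103813996. The coding sequences of *Hba-a1* and *Hba-a2*, 426 bases each in GENCODE M21, differ by the single substitution C381T, written from *Hba-a1* to *Hba-a2* and counted from the A of the start codon as 1. The stretch of coding positions 347 to 415 around it is shown 5′ to 3′ with the differing base in capitals:
Hba-a1: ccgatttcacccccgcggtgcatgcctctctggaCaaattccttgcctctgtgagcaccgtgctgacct
Hba-a2: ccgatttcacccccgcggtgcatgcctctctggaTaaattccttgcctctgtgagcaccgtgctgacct

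In the same way, the coding sequences of *Hbb-bs* and *Hbb-bt*, 441 bases each, differ by C417T alone, written from *Hbb-bs* to *Hbb-bt*. Positions 383 to 441 hold it, again 5′ to 3′ with the differing base in capitals:
Hbb-bs: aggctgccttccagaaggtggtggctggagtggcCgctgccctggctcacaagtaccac
Hbb-bt: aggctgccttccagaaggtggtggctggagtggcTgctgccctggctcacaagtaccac

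Both substitutions stand at position 3 of a codon, and each pair is 99.8% identical over its coding sequence. The embryonic genes are far from them. *Hba-x* was 62.8% identical to *Hba-a1*, *Hbb-bh1* was 73.9% and *Hbb-y* 74.4% identical to *Hbb-bs*, and *Hbb-bh1* and *Hbb-y* were 76.4% identical to each other. Outside the coding sequence the pairs differ in kind. Of the 538 aligned bases of the *Hba-a1* and *Hba-a2* transcripts, the coding difference was the only one, whereas 49 of the 629 aligned columns of *Hbb-bs* and *Hbb-bt* differed, 39 of them in the 135 columns after the coding sequence.

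The study's reads were 35 to 50 bases long, so each transcript was cut into all windows of these lengths. Each window was looked up, as an exact match, in every other transcript of the annotation. Of the 35-base windows of *Hba-a2*, 9.81% were found in no other gene, against 29.5% for *Hba-a1*, 33.3% for *Hbb-bs* and 40.8% for *Hbb-bt*. For *Hba-a2* these were 51 windows of 520, of which 35 cover the coding difference and 16 reach past the aligned part of the transcripts. For *Hba-a1* they were 196 windows of 665. Of these, 35 cover the coding difference and 161 reach into a longer annotated start that *Hba-a2* lacks. The RefSeq start of *Hba-a1* lies further downstream, and the 120 bases before it (chr11:32283552-32283671) fall inside the GENCODE gene. The higher share of *Hba-a1* therefore rests on the annotated start used. At 50 bases the shares were 32.5% for *Hba-a1*, 13.1% for *Hba-a2*, 34.2% for *Hbb-bs* and 41.7% for *Hbb-bt*. Every window of *Hba-x*, *Hbb-bh1* and *Hbb-y* was found in that gene alone at both lengths. How the counting treated reads that match several genes is not given in the sources used here. The value of a single adult gene is therefore uncertain against that of its partner, while the sum over a locus does not depend on how reads were divided within it as long as each was counted once. Reads left out for matching several genes would be missing from the sum as well. The reference carries 1 set of alleles of each locus, and the alleles of these Control and LS1 mice were not analysed here.

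**Figure D1:**
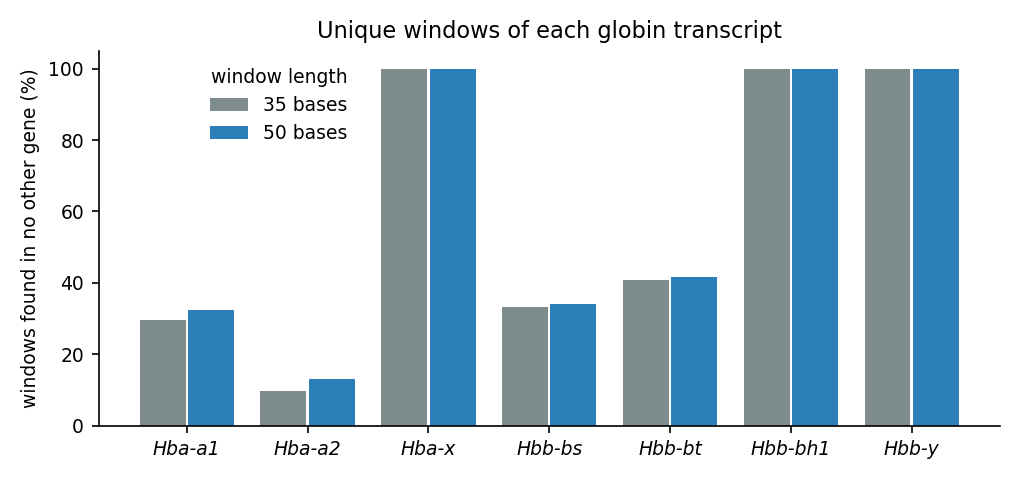
Share of the 35-base (grey) and 50-base (blue) windows of each globin transcript that occur in no other gene of the annotation, in percent, for the 7 genes. With the annotated starts used, *Hba-a2* has the lowest share at both lengths (9.81% and 13.1%), and the 3 embryonic genes stand at 100%.

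The 120 bases before the RefSeq start of the gene of each locus with the highest mean count are shown to set the proximal promoters of the alpha and beta loci side by side. The window of *Hba-a2* is chr11:32296372-32296491 on the plus strand and that of *Hbb-bs* chr7:103827929-103828048 on the minus strand of GRCm38.p6, written 5′ to 3′ with the CACCC run, the CCAAT run and the TATAA run in capitals:
Hba-a2: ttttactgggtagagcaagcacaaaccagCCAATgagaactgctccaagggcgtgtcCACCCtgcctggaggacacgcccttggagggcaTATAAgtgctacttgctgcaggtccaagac
Hbb-bs: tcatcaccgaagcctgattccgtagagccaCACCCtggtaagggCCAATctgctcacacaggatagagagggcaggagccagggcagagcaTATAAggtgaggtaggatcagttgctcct

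The runs searched, on both strands, were CACCC (the core letters of sites of KLF-type factors), CCAAT (of the CCAAT box), GATAA (of sites of GATA factors) and TATAA (of the TATA box), and a match is a description, not a bound site. In *Hbb-bs* CACCC began 90 bases before the start, CCAAT 76 and TATAA 29. In *Hba-a2* CCAAT came first, at 91 bases, followed by CACCC at 63 and TATAA at 30. *Hba-a1* held the same 3 runs at 88, 60 and 27 bases, and its window was 95.1% identical to that of *Hba-a2*. *Hbb-bt* differed more from its partner, with 72.7% identity. It held CACCC at 104 and 89 bases, TATAA at 28, and CCAAT at 75 bases on the plus strand and at 80 and 36 bases on the minus strand. *Hba-x* alone of the 6 genes with a window held GATAA (107 bases), together with CACCC (95) and TATAA (28), and *Hbb-y* held CACCC (111) and CCAAT (83). *Hbb-bh1* is named only. Like that of *Hba-a1*, the windows of *Hbb-bs* and *Hba-x* lie inside the GENCODE genes. Those of *Hbb-bt*, *Hba-a2* and *Hbb-y* reach into theirs, so all windows are upstream of the RefSeq starts only. Among all 32544 RefSeq windows of this length, 31.8% held CACCC, 21.2% held CCAAT, 10.4% held GATAA and 11.9% held TATAA.

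The libraries held 68803249 to 76581954 reads in Control and 82227711 to 88745366 in LS1, so every LS1 library was the deeper, and the deposited counts are divided by 1 size factor per library. This unit is called normalized count here, and fold changes are differences of mean log2(normalized count + 1). The median difference over the 19308 genes tested was 0.0054. Transcripts of cartilage, bone and leukocytes were detected, since 10 of 10 cartilage markers, 9 of 9 bone markers and 4 of 4 general leukocyte markers passed the filter of 20 mean reads. These lists do not tell growth plate from joint cartilage, or marrow from blood. Skeletal muscle markers passed as well (8 of 9), at summed normalized counts of 8701 to 21466 in Control and 4102 to 12894 in LS1. LS1 replicate 1 stood lowest of the 6 libraries in the median level of each of 6 lists of other red cell genes. The list medians and list genes that this mouse moved by over 1.5 times are therefore also given without it.

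The adult globin genes were among the most abundant transcripts of the tissue, and the combined globin level in LS1 was 51.2% of that in Control. Together the members took 2.48%, 1.88% and 2.01% of all reads in Control replicates 1, 2 and 3, and 0.977%, 1.09% and 1.17% in LS1 replicates 1, 2 and 3. The means were 2.12% ± 0.317 in Control and 1.08% ± 0.0954 in LS1 (SD, n = 3), and the groups did not overlap. In a pooled tissue such as this, fewer red cells and less globin RNA per red cell cannot be told apart. All 7 members had a lower mean in LS1, and 49.3% of all genes tested had a log2 fold change below 0. Of the members, *Hba-x* had too few reads for a fold change. Of the 6 with enough reads to enter the fit over all genes, 3 (*Hba-a2*, *Hbb-bs* and *Hbb-bh1*) had no LS1 mouse at or above the lowest Control mouse, as had 8.94% of all genes tested. Nothing is read from these counts because the contrast helped to choose the members.

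*Hbb-bs*, the major adult beta gene, ranked 5 by normalized count, which is not per length, in every library and was the highest globin gene. Control replicates 1 to 3 had 1319370, 1048220 and 1129110 normalized counts, and LS1 replicates 1 to 3 had 606193, 598739 and 596032. The LS1 mice lay within a very narrow band, and all of them were far below the lowest Control mouse. The means were 1165570 ± 139205 in Control and 600322 ± 5262 in LS1 (SD, n = 3), a log2 fold change of -0.95 with a standard error of 0.14. Without any 1 library this difference ran from -1.02 to -0.86. The spread of *Hbb-bs* among the LS1 mice was 0.0126 as an SD of log2 values. Among the 1444 genes averaging 10000 normalized counts or more, 1 had a smaller SD in LS1. In Control its SD was 0.169, and 65.3% of those genes had a smaller one there.

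*Hbb-bt*, its partner in the adult beta pair, had 148722, 74543 and 73068 normalized counts in Control and 53952, 62332 and 81436 in LS1. Control replicate 1 stood far above the other Control mice, and LS1 replicate 3 lay above both of those, so the groups overlapped. The means were 98778 ± 43260 and 65907 ± 14087 (SD, n = 3), a log2 fold change of -0.52 with a standard error of 0.28. Without Control replicate 1 it was -0.18.

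*Hba-a2*, the adult alpha gene with the higher mean count, had 313537, 213805 and 238539 normalized counts in Control and 72293, 103330 and 110986 in LS1. Each LS1 mouse was below each Control mouse. The means were 255294 ± 51934 and 95536 ± 20490 (SD, n = 3), so that LS1 stood at 37.4% of Control, with a log2 fold change of -1.42 and a standard error of 0.19. Leaving out single libraries gave -1.54 to -1.23.

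*Hba-a1*, its partner, had 135846, 98257 and 125695 normalized counts in Control and 32902, 78153 and 120836 in LS1. The LS1 mice spanned a wide range, from far below Control in replicate 1 to within the Control range in replicate 3, and the groups overlapped. Its means were 119932 ± 19446 and 77297 ± 43973 (SD, n = 3), a log2 fold change of -0.81 with a standard error of 0.48. Leaving out LS1 replicate 1 gave -0.29, and leaving out LS1 replicate 3 gave -1.23. The SD of its log2 values in LS1 was 0.955, and 99.7% of the 1444 genes at or above a mean of 10000 had a smaller one.

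The embryonic genes were near the limit of detection in all 6 mice. *Hbb-bh1*, an embryonic beta-type gene, had 55, 21 and 23 reads in Control and 7, 12 and 10 in LS1. After scaling these were 55.5, 23.3 and 25.4 normalized counts against 6.67, 10.4 and 9.33, with means of 34.7 ± 18.0 and 8.81 ± 1.94 (SD, n = 3) and no overlap. The log2 fold change was -1.77 with a standard error of 0.51, and -1.39 without Control replicate 1. With 21.3 reads on average the gene passed the filter of 20 only through its Control libraries, so its place among the tested genes and its lower level in LS1 are not independent. *Hbb-y*, the embryonic epsilon-type gene at the head of the beta locus, had 29, 25 and 19 reads in Control and 14, 28 and 28 in LS1. Its normalized counts of 29.3, 27.7 and 21.02 in Control overlapped with those of LS1 (13.3, 24.4 and 26.1), and the log2 fold change of -0.32 had a standard error of 0.45 and was -0.028 without LS1 replicate 1. *Hba-x*, the embryonic zeta-type gene of the alpha locus, had 3, 2 and 15 reads in Control and 2, 5 and 3 in LS1. Of these libraries 4 were at or below a floor of 3 reads, so no fold change is given.

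Embryonic genes made up 0.00303% to 0.00577% of the beta locus reads and 0.000674% to 0.00455% of the alpha locus reads, with overlapping groups at both loci. The alpha shares rest on so few reads that their exact 95% binomial intervals (Clopper-Pearson) were up to 0.00632 percentage points wide, and such intervals cover counting error only.

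**Figure D2:**
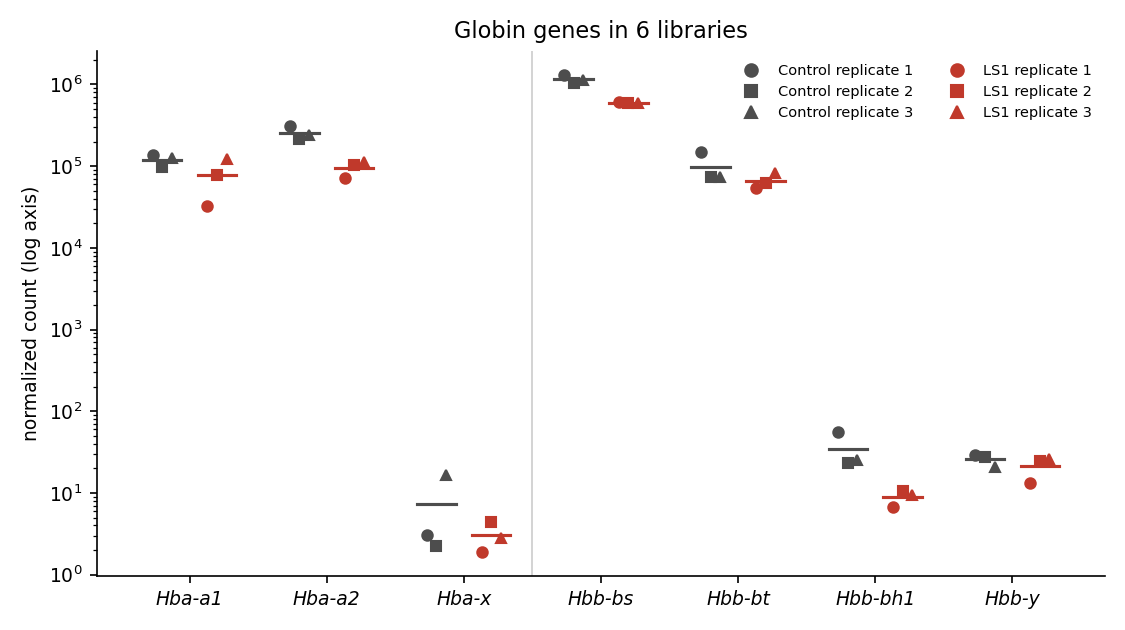
Normalized counts (log axis) of the 7 globin genes, alpha locus on the left and beta locus on the right of the grey line, for the 3 Control (grey) and 3 LS1 (red) mice, with horizontal bars at the group means. The adult genes lie between 32902 and 1319370, the embryonic genes between 1.90 and 55.5, and the 3 LS1 points of *Hbb-bs* nearly coincide.

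Per kilobase, with all annotated exons of a gene as its length, the order in Control was *Hbb-bs* (1364870 to 1717930 normalized counts per kb), *Hba-a2* (320548 to 470070), *Hba-a1* (121006 to 167298), *Hbb-bt* (103937 to 211554), *Hbb-bh1* (37.98 to 90.5), *Hbb-y* (33.2 to 46.2) and *Hba-x* (2.36 to 17.7). The ranges of *Hba-a1* and *Hbb-bt* overlapped, as did those of *Hbb-bh1* and *Hbb-y*, and the other neighbours were separate. The places of the adult genes also depend on how reads common to both copies were counted and on the annotated exons. Neither was tested, so the order within a pair is uncertain. In LS1 *Hbb-bs* again led (776084 to 789314 per kb). There *Hba-a2* (108385 to 166395 per kb) overlapped with both *Hba-a1* (40520 to 148812) and *Hbb-bt* (76745 to 115841). *Hbb-y* (21.1 to 41.3 per kb) stood above *Hbb-bh1* (10.9 to 17.0) in LS1, and *Hba-x* was again the lowest (2.03 to 4.64).

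Summed over each locus, which avoids the division of reads within a pair, both loci were lower in LS1 and neither sum overlapped between groups. The alpha locus had 449385, 312064 and 364250 normalized counts in Control and 105197, 181488 and 231824 in LS1. The highest LS1 sum was below the lowest Control sum, and the LS1 mice spread 2.20 times from lowest to highest. The alpha means were 375233 ± 69316 and 172836 ± 63755 (SD, n = 3), with a log2 fold change of -1.18 and a standard error of 0.37. Without LS1 replicate 1 it was -0.86. The beta locus had 1468180, 1122810 and 1202230 normalized counts in Control and 660165, 661106 and 677504 in LS1. Here the LS1 mice spread only 1.03 times from lowest to highest. The beta means were 1264410 ± 180886 and 666258 ± 9750 (SD, n = 3), with a log2 fold change of -0.91 and a standard error of 0.12, and it stayed at -0.91 without LS1 replicate 1.

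Alpha and beta chains enter hemoglobin in equal numbers, so the balance of the loci was taken per mouse as the ratio of alpha to beta normalized counts. It was 0.306, 0.278 and 0.303 in Control and 0.159, 0.275 and 0.342 in LS1. The LS1 mice lay on both sides of Control, with replicate 1 far below and replicate 3 above. The means were 0.296 ± 0.0154 and 0.259 ± 0.0924 (SD, n = 3), and the difference of -0.037 was smaller than its standard error of 0.0541. It turned to 0.0127 without LS1 replicate 1. These counts are not per length, so the ratio compares mice and is no ratio of molecules. The copies also share unlike parts of their 35-base windows, 70.5% of *Hba-a1* and 90.2% of *Hba-a2*. For *Hbb-bs* and *Hbb-bt* these parts were 66.7% and 59.2%. If reads matching several genes were left out, the alpha and beta sums could be lowered unequally, which was not tested.

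**Figure D3:**
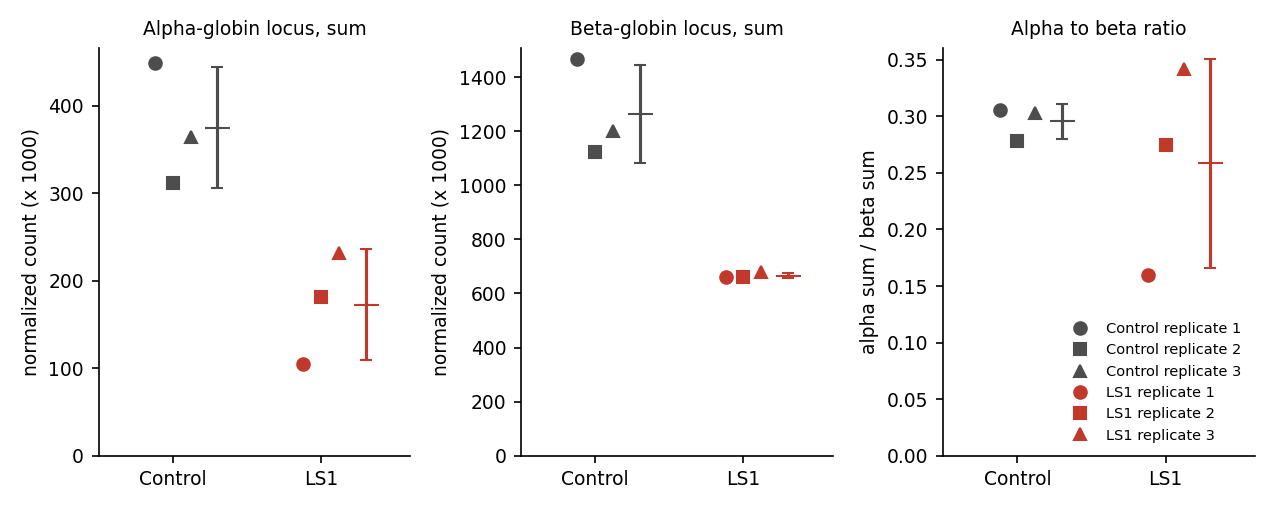
Normalized counts summed over the alpha locus (left) and the beta locus (middle), and the ratio of the sums (right), for each Control (grey) and LS1 (red) mouse, with mean and SD beside the points. Both sums separate the groups, the LS1 beta sums lie close together, and the LS1 ratios run from 0.159 to 0.342 around the Control values.

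Within the adult alpha pair, *Hba-a1* took 30.2%, 31.5% and 34.5% of the reads in Control and 31.3%, 43.1% and 52.1% in LS1. LS1 replicate 1, which had the fewest alpha reads, lay inside the Control range, and the other LS1 mice were above it. The means were 32.1% ± 2.20 and 42.2% ± 10.5 (SD, n = 3), a difference of 10.1 percentage points with a standard error of 6.17. It was 15.5 points without LS1 replicate 1 and 5.10 without LS1 replicate 3. Expressed as a ratio, *Hba-a2* reads were 2.31, 2.18 and 1.90 times those of *Hba-a1* in Control and 2.20, 1.32 and 0.918 times in LS1, so *Hba-a1* had more reads than *Hba-a2* in LS1 replicate 3 alone.

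Within the adult beta pair, *Hbb-bt* took 10.1%, 6.64% and 6.08% of the reads in Control and 8.17%, 9.43% and 12.02% in LS1. Control replicate 1 was among the LS1 values. The means were 7.62% ± 2.20 and 9.87% ± 1.96 (SD, n = 3), a difference of 2.26 percentage points with a standard error of 1.70. It was 3.52 points without Control replicate 1 and 1.19 without LS1 replicate 3. Exact 95% binomial intervals of the shares were at most 0.548 percentage points wide for the alpha pair and 0.150 for the beta pair, so counting error was small beside the spread among mice. Each share also depends on how reads common to both copies were counted, which was not tested.

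**Figure D4:**
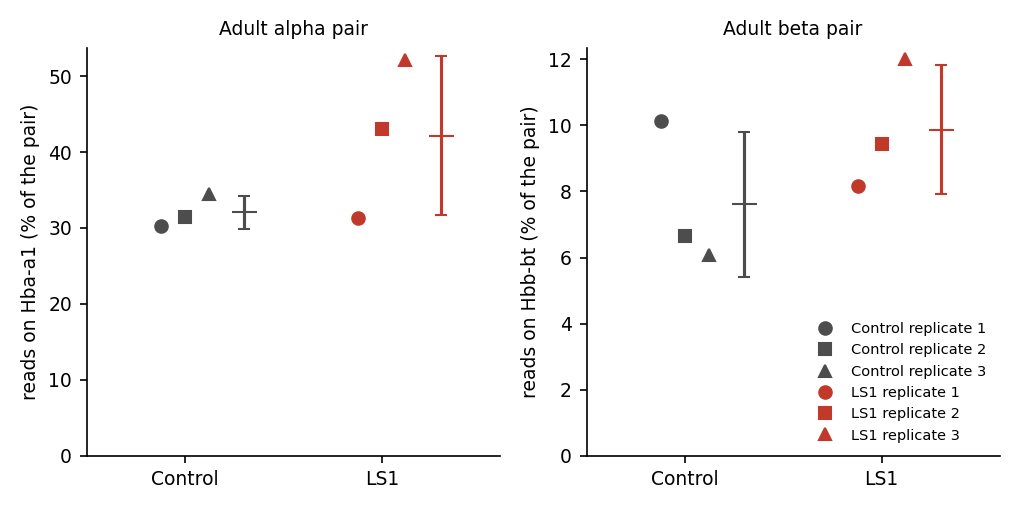
Reads on *Hba-a1* in percent of the adult alpha pair (left) and on *Hbb-bt* in percent of the adult beta pair (right), per mouse, with mean and SD. The Control shares of *Hba-a1* lie between 30.2% and 34.5% while those of LS1 reach 52.1%, and the groups overlap in both panels.

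Further members of the globin family were not part of the choice. *Hba-ps4*, an alpha pseudogene, had 7109, 6801 and 9461 normalized counts in Control and 2291, 5107 and 5477 in LS1, with no overlap. Its log2 fold change was -0.95 (standard error 0.33), and it missed the threshold (limma, Benjamini-Hochberg adjusted p = 0.313). Without LS1 replicate 1 it was -0.54. Of its 35-base windows, 96.9% occur in no other gene as exact matches, and its reads were 1.56% to 2.74% of those of the alpha pair and itself together. Whether reads of the alpha pair were placed on it with mismatches was not tested. *Mb*, the myoglobin of muscle, was at 404 ± 182 normalized counts in Control and 146 ± 9.88 in LS1 (SD, n = 3), with a log2 fold change of -1.38 (standard error 0.30, limma adjusted p = 0.159). The 8 tested muscle markers had a median log2 fold change of -0.72, or -0.11 without LS1 replicate 1, and their part in the value of *Mb* was not tested. *Hbq1b*, the theta-type globin of the alpha locus, had 628 ± 51.3 in Control and 566 ± 310 in LS1 (SD, n = 3), with a log2 fold change of -0.33 and a limma adjusted p of 0.763, and its difference turned to 0.19 without LS1 replicate 1. *Cygb* (cytoglobin) and *Ngb* (neuroglobin) had log2 fold changes of 0.17 and 0.43, with limma adjusted p-values of 0.787 and 0.774, and single libraries left out gave 0.072 to 0.30 and -0.0076 to 0.84. *Hbq1a*, below the filter, had 4.04, 3.33 and 23.2 normalized counts in Control and 16.2, 42.6 and 22.4 in LS1, and it shares 43.2% of its 35-base windows with *Hbq1b*. *Hbb-bh3* had 4.66 to 9.95 normalized counts, *Hbb-bh2* 0 to 6.05, and *Hbb-bh0* had a read in 1 library.

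Most other red cell genes also had lower means in LS1. Over 6 lists with 77 tested genes, 68 had a log2 fold change below 0 (88.3%, against 49.3% of all genes tested), and their median was -0.46, against 0.0054 for all genes. No gene of the lists passed the threshold in limma, where 14 of all genes did (0.0725%). At an unadjusted p under 0.05, limma had 37 of the 77 lower (48.1%, against 5.86% of all genes) and 2 higher (against 7.08% of all genes). In 31 of the 77 (40.3%, against 8.94%) the highest LS1 value was below the lowest Control value. The lists were chosen with earlier results of these data known. Their genes belong to the same cells of the same 6 mice and are not independent, so these counts are a description. On the recovered reads edgeR called none of them (0.0311% of all genes were called lower), and DESeq2 called 4 as lower, *Car2*, *Tal1*, *Slc25a37* and *Dmtn* (1.02% of all genes were called lower). The median was -0.26 without LS1 replicate 1, with 64 of 77 below 0.

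The list named for transcription regulators of the globin loci had 13 of 14 tested genes below 0 and a median of -0.35. *Tal1*, which binds the enhancers of both loci, had 18655 ± 3470 normalized counts in Control and 11650 ± 2683 in LS1 (SD, n = 3), a log2 fold change of -0.69 (standard error 0.19, limma adjusted p = 0.229). *E2f2*, a cell cycle factor of erythroblasts, was at -0.62 (limma adjusted p = 0.237). *Nfe2*, a factor of the beta locus enhancers, was at -0.33, and *Sox6*, a repressor of embryonic globin genes that cartilage also uses, was at -0.31, with limma adjusted p-values of 0.530 and 0.527. *E2f2* was at -0.40 and *Nfe2* at -0.11 without LS1 replicate 1, and *Sox6* was at -0.15 without LS1 replicate 3, at -0.19 without Control replicate 1 and at -0.51 without Control replicate 3. The lowest value was that of *Klf1*, the factor that activates the adult beta gene, at -0.74 (-0.46 without LS1 replicate 1), and the highest was *Gata2* at 0.03 (0.12 without LS1 replicate 1).

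Heme synthesis had 10 of 11 genes below 0 and a median of -0.46, which was -0.24 without LS1 replicate 1. *Alas2*, the erythroid enzyme of the first step, had 70215 ± 13522 normalized counts in Control and 52070 ± 15555 in LS1 (SD, n = 3), with a log2 fold change of -0.46 and a limma adjusted p of 0.434. *Fech*, which inserts the iron, was at -0.51 and the late enzyme *Cpox* at -0.36, with limma adjusted p-values of 0.279 and 0.409. *Alad*, the enzyme of the second step, was the exception at 0.43 (limma adjusted p = 0.507), and at 0.19 without Control replicate 1. Without LS1 replicate 1 *Alas2* was at -0.18, *Fech* at -0.32 and *Alad* at 0.69.

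In the list for iron supply and heme control, 8 of 10 genes were below 0 with a median of -0.28, which was -0.17 without LS1 replicate 1. *Slc25a37*, the importer of iron into mitochondria, was at -0.66 (limma adjusted p = 0.220). *Eif2ak1*, the kinase that holds back globin translation when heme is short, was at -0.49 (limma adjusted p = 0.236). The ferritin chain *Fth1* was at -0.28 and the transferrin receptor *Tfrc* at -0.05, with limma adjusted p-values of 0.485 and 0.928. *Fth1* was at -0.16 and *Tfrc* at 0.06 without LS1 replicate 1, and *Fth1* was at -0.18 without Control replicate 1. *Ahsp*, the chaperone of free alpha chains, was not analysed here.

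All 16 genes of the red cell membrane list were below 0, with a median of -0.54. Without LS1 replicate 1 all 16 were still below 0 and the median was -0.34. *Slc4a1*, the anion exchanger, had 153897 ± 25512 normalized counts in Control and 110969 ± 37245 in LS1 (SD, n = 3), a log2 fold change of -0.52 (limma adjusted p = 0.387), which was -0.25 without LS1 replicate 1. The membrane skeleton protein *Epb41* was at -0.37 (limma adjusted p = 0.390) and at -0.24 without Control replicate 1, and *Dmtn* was lowest at -0.85. Red cell enzymes and maturation genes had 13 of 16 below 0 and a median of -0.47, which was -0.25 without LS1 replicate 1. *Car2*, a carbonic anhydrase of red cells and osteoclasts, had 103958 ± 14128 in Control and 61904 ± 2711 in LS1 (SD, n = 3), a log2 fold change of -0.74 with the smallest limma adjusted p of all 77 genes, 0.120. *Hemgn* was at -0.55, *Mkrn1* at -0.48 and the peroxide-reducing enzyme *Prdx2* at -0.26, with limma adjusted p-values of 0.320, 0.245 and 0.713, and the glucose transporter *Slc2a1* was highest at 0.57. The value of *Prdx2* turned to 0.08 without LS1 replicate 1.

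The list named for erythropoietin signaling and early erythroid genes, which also holds broader genes such as *Add1*, had 8 of 10 below 0. Its median was -0.26, and -0.13 without LS1 replicate 1. *Cd24a*, a surface protein of erythroblasts and of B cells, was at -0.33 (limma adjusted p = 0.411), and at -0.16 without Control replicate 1. *Add1* was at -0.34, *Tspan33* at -0.70 and the survival factor *Bcl2l1* at -0.56, with limma adjusted p-values of 0.357, 0.271 and 0.260, and *Cited2* was highest at 0.53. *Tspan33* was at -0.39 and *Bcl2l1* at -0.36 without LS1 replicate 1.

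**Figure D5:**
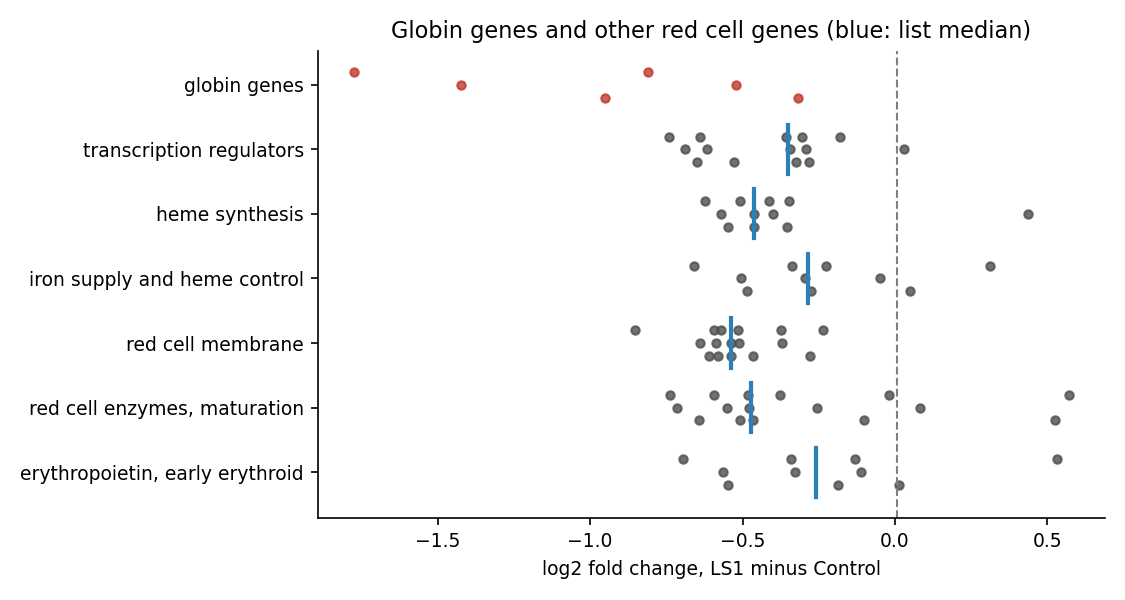
Log2 fold change (LS1 minus Control, horizontal axis) of each tested gene in the globin group (red) and in 6 lists of other red cell genes (grey), with list medians in blue and the median of all genes tested as a dashed line. The list medians lie between -0.54 and -0.26, and the lowest gene of the lists is at -0.85.

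Set against the red cell membrane list, the globin sums were lower by a smaller margin. This scaling was chosen after the data were seen. The geometric mean of the 16 membrane genes was 20538, 17960 and 15283 normalized counts in Control and 9689, 15336 and 12957 in LS1, a log2 fold change of -0.52 with a standard error of 0.23, and -0.34 without LS1 replicate 1. The alpha sum was 21.9, 17.4 and 23.8 times this mean in Control and 10.9, 11.8 and 17.9 times in LS1. Of the LS1 mice replicate 3 alone reached into the Control range, and the log2 difference was -0.66 with a standard error of 0.26. The beta sum was 71.5, 62.5 and 78.7 times it in Control and 68.1, 43.1 and 52.3 times in LS1. There LS1 replicate 1 lay among the Control mice, and the log2 difference was -0.40 with a standard error of 0.21. Without that mouse it was -0.57 and the groups no longer overlapped, and without LS1 replicate 2 it was -0.24.

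Markers of other cells differed between the groups in both directions. All 10 tested platelet markers were below 0 with a median log2 fold change of -0.62, 9 of 10 B cell markers with a median of -0.43, and all 8 muscle markers with a median of -0.72. Without LS1 replicate 1 the platelet median was -0.33 and the muscle median -0.11, with 6 of the 8 muscle markers below 0. The muscle median was -0.29 without Control replicate 1, and the B cell median was -0.21 without LS1 replicate 2. All 10 cartilage markers were above 0 with a median of 0.49, and their summed normalized counts of 2478560 to 2844430 in Control did not overlap with 3301280 to 3747410 in LS1. Medians were near 0 for bone (0.05), endothelium (0.08) and general leukocyte markers (0.06), and stood at 0.13 for neutrophils and 0.23 for macrophages. With single libraries left out the medians of bone, endothelium and general leukocyte markers changed sign, those of neutrophils ran from 0.022 to 0.26, and those of macrophages from 0.14 to 0.37. The part of these other cells, and of the deeper LS1 libraries, in the globin values was not tested.

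The genes whose levels followed a locus sum most closely over the 6 libraries were named by their Pearson correlation of log2(normalized count + 1). All of these correlations share the same libraries and the difference between the groups, and they are a description. For the alpha sum they were *Tubb4b* (r = 0.997), *Trmt12* (0.995), *Carhsp1* (0.994), *Birc5* (0.993) and *Tnk2os* (0.993). *Tubb4b*, a beta tubulin, had 13086, 10878 and 12014 normalized counts in Control and 7323, 8950 and 9918 in LS1, with the same order of mice as the alpha sum. For the beta sum they were *Lbp* (r = 0.999), *Lrtm1* (0.996), *Rpl30-ps11* (0.993), *Mturn* (0.992) and *Plk1* (0.989). *Lbp*, which binds bacterial lipopolysaccharide, had 2849, 2361 and 2432 in Control and 1647, 1653 and 1657 in LS1, a narrow band in LS1 as for the beta sum. *Birc5* and *Plk1* are genes of dividing cells. Their log2 fold changes were -0.41 and -0.57, with limma adjusted p-values of 0.304 and 0.176.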

How the data were processed

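RNA of 6 libraries, 3 Control and 3 LS1, was sequenced. The authors used HISAT2 2.0.2 for mapping against GRCm38, featureCounts 1.4.6 for gene counts on the Ensembl annotation, and DESeq2. The deposited values are a signal, namely read counts scaled by the authors with a single size factor for each library. Dividing by the value of 1 read (0.870 to 1.11) gave whole reads for 100% of values within 0.01. In Control replicate 1 that value (1.01) is close to 1, so rounded values are hard to tell apart from reads there. Replicates differed by far more than read sampling (42.9 to 163.8 chi-square units for each degree of freedom), so each stayed a separate sample. The smallest library, 68803249 reads, sets the precision of low genes.

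Genes with a mean of at least 20 reads (19308) were tested on log2(value + 1) by limma 3.58.1 (R 4.3.3). The fit used a trend of variance on mean, robust moderation and the Benjamini-Hochberg adjustment at 0.05. The pseudocount of 1 understates changes of low genes. Alternatives were edgeR 4.0.16, DESeq2 1.42.0 and limma-voom on the recovered reads, other scalings, filters and pseudocounts, a replicate block and each library left out. The fits were tested on simulated data.

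Symbols and coding sequences came from GENCODE M21 (98.9% of identifiers had a symbol) and promoters from RefSeq, aligned with Biopython 1.88. The members and lists were chosen with earlier results of these data known. Named genes are the members, the detected genes of the wider globin family, in each list those past the threshold and the 4 with the highest mean, and the 5 most alike to each locus sum. Of the red cell membrane genes that this rule names, 2 are not reported here. The lowest and highest gene of a list, and genes called by an alternative alone, were added after their values were seen.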

Additional observations from a re-analysis of the deposited data

How the results depend on the processing

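Of all genes tested, 14 passed the threshold, and this count was 7 with edgeR, 459 with DESeq2, 8 with limma-voom, 45 with no filter on low counts, and 5 to 324 with single libraries left out (324 without LS1 replicate 3). Red cell list genes called lower numbered 0, and 4 with DESeq2, 1 with no filter (*Car2*) and 0 to 2 without single libraries (*Car2* and *Klf1* without LS1 replicate 3). The list median ran from -0.56 to -0.26 there. Scaled to the red cell membrane list, chosen after the data were seen, the alpha sum was at -0.66 in place of -1.18 and the beta sum at -0.40 in place of -0.91. With single libraries left out these sums ran from -1.43 to -0.86 and from -0.996 to -0.80. The difference in the alpha to beta ratio ran from -0.0787 to 0.0127 and turned its sign without LS1 replicate 1. The differences in share ran from 5.10 to 15.5 percentage points for *Hba-a1* and from 1.19 to 3.52 for *Hbb-bt*. The 6 tested members kept the sign of their difference in each of 15 alternatives, with *Hbb-y* at -0.028 without LS1 replicate 1. Nothing is read from this, because the contrast helped to choose the members. The cause of the changes between settings was not tested. TMM and total reads moved the median of all genes by 0.01 and -0.01 (log2).

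With a replicate block, 12 genes passed the threshold, 0 red cell list genes did, and the fold changes of the members were the same by construction. Same-numbered mice share the first letter of their sample titles, and the meaning of this letter is not given in the sources used here. The deviations of same-numbered mice correlated at 0.05, 0.02 and 0.22, and of the Control mice replicate 3 alone correlated best with its own number, so the numbers were not taken as pairs. With 3 mice a group an exact permutation test cannot go below 0.1, and a gene at a few reads, such as *Hba-x*, cannot show a difference at this depth.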

Other observations

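*Alox15*, a lipoxygenase of maturing reticulocytes and of macrophages, is given here because its values stood apart from those of the other red cell genes. It had 4799, 3469 and 217 normalized counts in Control replicates 1 to 3 and 5583, 6245 and 308 in LS1 replicates 1 to 3. Replicate 3 was far below the other mice in both groups, whereas the alpha and beta globin sums of these mice lay between those of the other mice in Control and were the highest in LS1. Both replicate 3 mice carry the same title letter, of unstated meaning, and its part in these values was not tested.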
